A study of Mus musculus with 12 samples.

Results

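The genes described here are those named for proteins of the cytosolic ribosome, 81 of the 19921 gene symbols in the count tables. They were chosen by symbol alone (Rpl or Rps, with Rplp for the stalk proteins, followed by a number) and by a minimum of 50 counts summed over the 12 libraries. Of 83 symbols with such a name, 2 fell below the minimum, Rpl3l with 21 counts and Rps4l with 5. The 81 members are 50 genes of the large subunit (Rpl) and 31 of the small subunit (Rps), they lie on 19 chromosomes, and all 81 passed the filter on low counts. One large-subunit symbol, Rpl32l, is annotated as a processed pseudogene, the others as protein-coding.

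The series compared tumours of wild-type BALB/c mice that had received 200000 Colon26 cells, a mouse colon carcinoma line, under the skin of the right flank. Mice of the control group are labelled only as control. Those of the minP1 group received a peptide from the chromatin protein HMGN1 that stimulates immune cells (0.08 µg, intraperitoneal, day 9), and those of the anti-PD-L1 group an antibody (clone 10F.9G2, 200 µg, intraperitoneal, days 4 and 8) against PD-L1, a ligand that restrains T cells. The combination group is named for both agents in the sample titles, while its treatment field names the antibody alone after a plus sign, and those titles are what its results depend on. Tumours were taken on day 10 from 3 mice per group, each implanted mouse giving 1 sample. They were digested, tumour and dead cells were reduced by a Percoll density step, and polyadenylated RNA of the remaining cells was amplified and sequenced from its 5′ end.

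A ribosome is built from ribosomal RNA and a single copy of nearly every ribosomal protein, apart from the acidic stalk proteins, which are present in pairs. Their messenger RNAs are among the most abundant in dividing cells. Most begin with a C followed by a run of pyrimidines at the 5′ end, the terminal oligopyrimidine motif through which mTOR signalling and LARP1 regulate their translation and stability. In tumours, ribosome production follows growth signalling, and leukocytes alter it when they are activated.

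Depth and composition differed between libraries and touch every result. Total counts ranged from 285753 to 473273 in control, from 276203 to 322613 in minP1, from 188008 to 322493 in anti-PD-L1 and from 133917 to 196109 in the combination. Genes detected at an equal depth of 133917 counts numbered 10579 to 11611 in control and 9811 to 10448 in the combination. The noncoding RNA Bc1 and the symbol Lrrc17 held 1.36% to 2.34% of control counts and 2.49% to 6.32% of combination counts, and 6 ribosomal RNA symbols held 2.59% to 3.91% and 0.90% to 1.23%. Carcinoma markers were near 0 in all groups: Epcam is not among the symbols used here, and Krt8, Krt18 and Krt19 had 2, 9 and 3 counts over the 12 libraries. Leukocyte, macrophage and fibroblast markers were present throughout. In such bulk samples, fewer cells of a type and less RNA per cell cannot be told apart. Within their groups, minP1 replicate 2 and anti-PD-L1 replicate 1 stood apart in the ribosomal protein genes and also had the highest summed shares of Bc1 and Lrrc17, 4.17% and 4.42%. Results are therefore also given without both.

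The mouse RefSeq promoters (GRCm38.p6) held 61 of the 81 members. Because pyrimidine runs at the 5′ end mark this gene family, the windows below show the longest run of C and T between 60 bases before and 50 bases after the annotated start, on the gene's strand, for the 4 matched protein-coding members with the largest falls and the 4 with the largest rises in the combination. The pseudogene Rpl32l is left out of the windows. Capitals mark the run. The first 4 fell and the last 4 rose.
Rpl5, chr5:107900500-107900529, plus strand: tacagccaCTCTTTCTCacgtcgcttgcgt
Rpl4, chr9:64173405-64173434, plus strand: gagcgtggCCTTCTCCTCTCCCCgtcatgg
Rps23, chr13:90923142-90923171, plus strand: tgggtccttcctgcaCCTCCTCTCTCTTTC
Rpl7a, chr2:26910785-26910814, plus strand: ccccacaaTTCCCTCTTCTTTCTTTCTCCa
Rplp0, chr5:115559470-115559499, plus strand: ccgcctggTTCTCCTataaaaggcacacgc
Rps26, chr10:128626545-128626574, minus strand: ctgagggtTTTTTTTTTCagcgtgagcgta
Rps2, chr17:24720083-24720112, plus strand: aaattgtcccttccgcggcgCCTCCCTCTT
Rps9, chr7:3704027-3704056, plus strand: ccgccttgTCTCTCTTTgtctcgggcctga

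Counted within this window, the runs were 9, 15, 15 and 21 bases long in the 4 members that fell and 7, 10, 10 and 9 in the 4 that rose. Those of Rps23, Rps26 and Rps2 reached the edge of the window, so their lengths are minimum values. A run of at least 8 pyrimidines lay in this window in 50 of the 61 matched members (82.0%) and in 38.6% of 27025 mouse promoters. It was present in 33 of the 39 matched members that fell in the combination, in 5 of 7 that rose and in 12 of 15 that were not called. The letters TATAA, on the gene's strand in the 50 bases before the start, were found in 8.20% of the members and 5.33% of all promoters. A run of pyrimidines was thus common to members that moved in opposite directions. Relative to the annotated start, the printed runs began at bases -20, 26, 35 and -14 in the 4 that fell. In the 4 that rose they began at 11, -60, 40 and -6. Most thus lay away from that start, and a run in this window need not be the terminal motif. The windows are of the reference genome and show letters, not binding or use of a start.

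Ribosomal protein transcripts took up a similar part of every library. Their share of all counts was 18.4%, 16.2% and 16.1% in the control libraries, 16.01%, 17.3% and 16.2% in minP1, 17.8%, 16.8% and 18.3% in anti-PD-L1, and 15.4%, 17.2% and 14.3% in the combination. The ranges of the 4 groups overlapped. The ratio of large-subunit to small-subunit counts was 1.23 to 1.35 in control, 1.32 to 1.33 in minP1, 1.27 to 1.36 in anti-PD-L1 and 1.38 to 1.46 in the combination. The 3 combination libraries thus lay just above all 9 others in that ratio.

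The make-up of that share differed far more than its size. Levels are given in CPM, counts relative to the library total after scaling with TMM factors (trimmed mean of M-values), and were not divided by transcript length because a 5′ tag is read once per transcript end. By mean level over the 12 libraries, Rplp1, Rplp2, Rpl32, Rps9 and Rplp0 were highest, from 16540 CPM for Rplp1 to 7027 for Rplp0. Rpl15, Rpl7l1, Rpl26 and Rps27l were among the lowest, from 159 CPM for Rpl15 to 111 for Rps27l. The 5 most abundant members of each library held 20.8% to 25.05% of ribosomal protein counts in control, 23.0% to 29.9% in minP1, 25.3% to 35.3% in anti-PD-L1 and 34.2% to 43.5% in the combination. The effective number of members (the exponential of the Shannon entropy of their shares, which would be 81 if all were equal) was 51.8 to 57.8 in control, 44.3 to 54.9 in minP1, 38.2 to 49.5 in anti-PD-L1 and 30.03 to 39.6 in the combination. Fewer genes made up most of the ribosomal protein counts in the combination than in control.

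**Figure D1:**
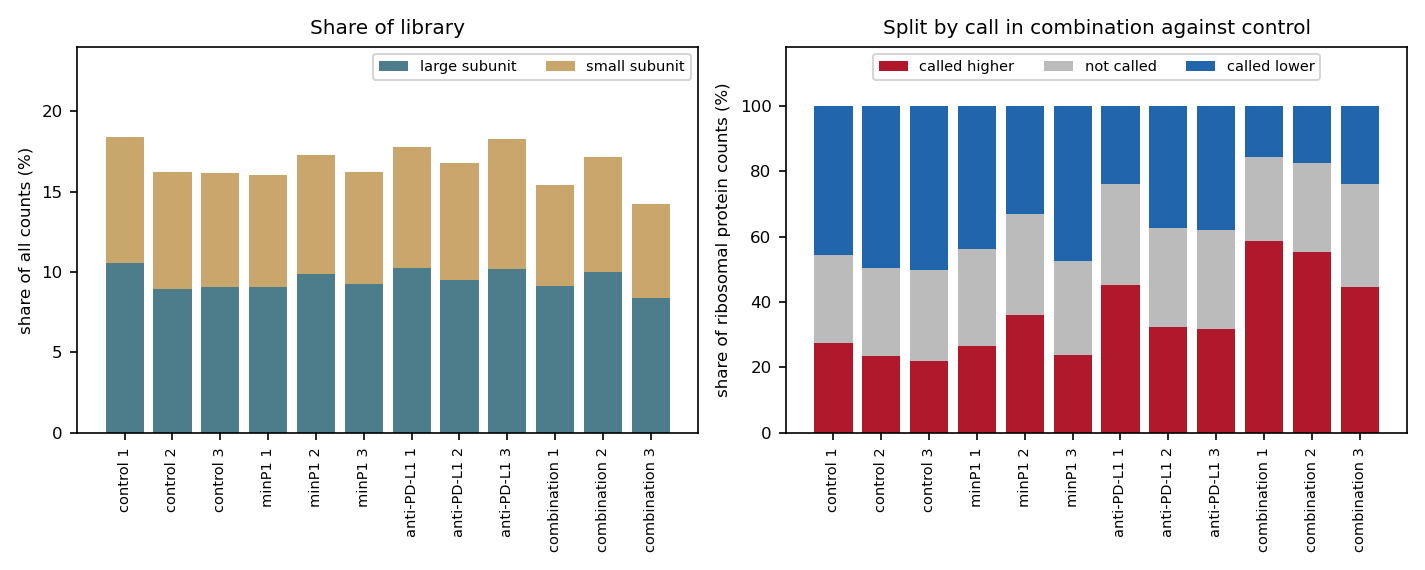
Left, share of all counts (%) held by large-subunit and small-subunit genes in each library. Right, the ribosomal protein counts of each library (%) split into the members called higher, not called or called lower in the combination against control. The share of the library stays between 14.3% and 18.4%, while the members called higher hold 22.0% to 27.4% of it in control and 44.7% to 58.5% in the combination, a difference that the choice of these members fixes.

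The combination against control asks what both agents together changed. Of the 81 members, 51 fell and 10 rose, with an adjusted p under 0.05, and 20 were not called. Of all 5443 genes tested, 34.8% were called, 18.3% lower and 16.5% higher, so the members were called lower at 63.0% and higher at 12.3%. The median log2 fold change was -1.25 over the members, -1.36 over the large subunit and -0.86 over the small, against -0.06 over all genes. By subunit, 32 of 50 large and 19 of 31 small genes fell, and 6 and 4 rose. The libraries of the 2 groups did not overlap in 62 members, 55 lower and 7 higher, against 45.9% of all genes. All 51 members called lower were below control in every library, while 7 of the 10 called higher were above it in every library.

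**Figure D2:**
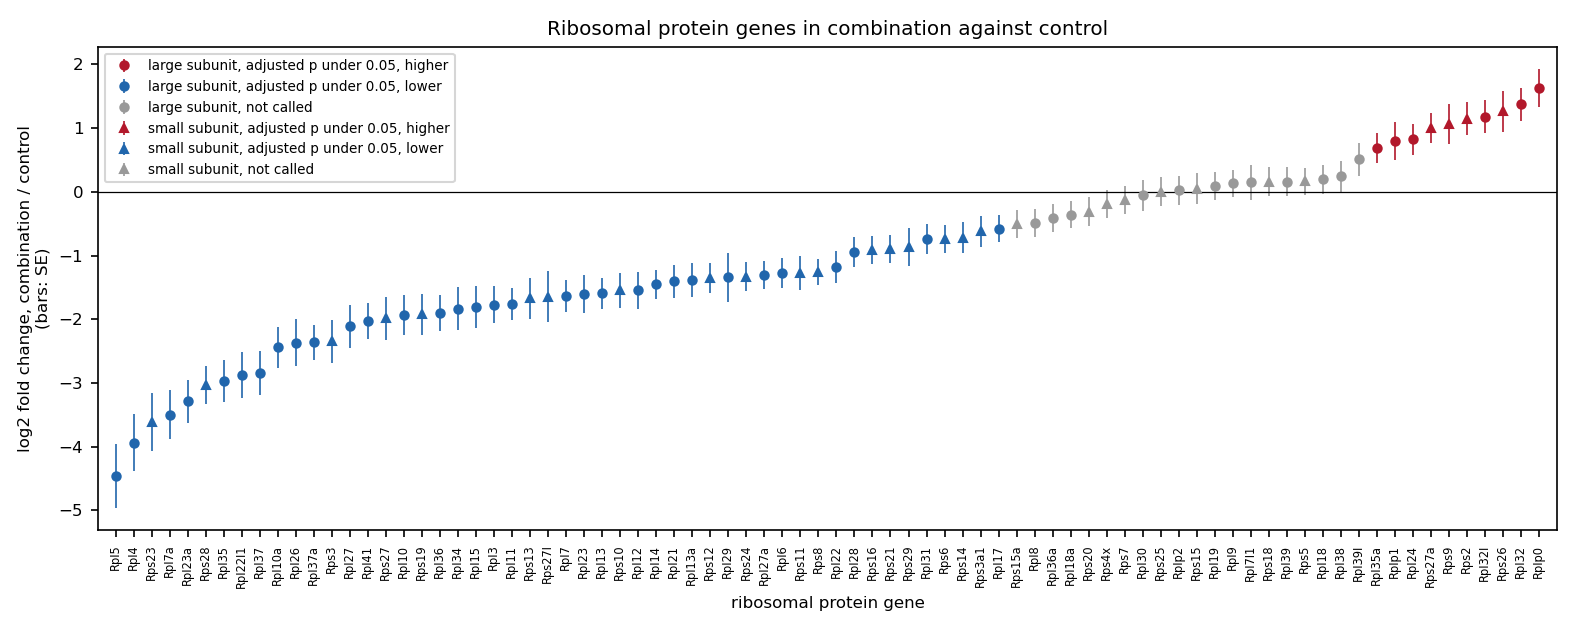
Log2 fold change of ribosomal protein genes in the combination against control, in rank order, with SE as bars and 3 mice per group. Circles are large-subunit and triangles small-subunit genes, coloured by call, and both kinds occur at each end, from -4.46 for Rpl5 to 1.63 for Rplp0.

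Rpl5, which carries the 5S ribosomal RNA into the large subunit, fell furthest. Its levels were 982, 1192 and 1283 CPM in control, 960, 256 and 922 in minP1, 151, 493 and 582 in anti-PD-L1, and 51.2, 35.8 and 67.7 in the combination. The combination libraries lay below all others, and minP1 replicate 2 and anti-PD-L1 replicate 1 were the lowest of their groups. The log2 fold change against control was -4.46 ± 0.50 (SE, n = 3 mice per group, edgeR adjusted p = 1.3e-06), resting on 24 counts over the 3 combination libraries against 1242 in control. Rpl11, its partner in the 5S particle, had 1388, 1587 and 1341 CPM in control and 410, 376 and 485 in the combination, a smaller fall of 1.76 ± 0.25 on the log2 scale. When free of the ribosome, both proteins are known to bind and inhibit MDM2, the ubiquitin ligase of p53.

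Rpl4, a core protein with a loop that lines the nascent-chain tunnel, fell by 3.93 ± 0.44 on the log2 scale. Its levels were 501, 742 and 1017 CPM in control and 17.1, 53.7 and 67.7 in the combination. Rps23, at the decoding centre of the small subunit, had 578, 607 and 584 CPM in control and 59.8, 29.8 and 56.4 in the combination, a log2 fold change of -3.61 ± 0.46. Rpl7a had 684, 768 and 820 CPM in control and 59.8, 53.7 and 84.6 in the combination, a log2 fold change of -3.49 ± 0.39. None of these 4 genes had an overlap between the groups. The next largest falls were of Rpl23a (-3.29), Rps28 (-3.03), Rpl35 (-2.97), Rpl22l1 (-2.88) and Rpl37 (-2.84).

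Rplp0, the base of the P stalk that recruits elongation factors, rose most. Its levels were 5409, 3141 and 3110 CPM in control, 3921, 5888 and 3395 in minP1, 10964, 5324 and 7101 in anti-PD-L1, and 14811, 12711 and 8548 in the combination. The combination libraries all exceeded control, while anti-PD-L1 replicate 1 lay within the combination's range. The log2 fold change was 1.63 ± 0.30 (SE, n = 3, edgeR adjusted p = 0.00027). The other stalk proteins moved less. Rplp1 (0.80 ± 0.30) was called although its libraries overlapped, with 16442, 10896 and 9329 CPM in control and 24141, 26091 and 13468 in the combination, and Rplp2 (0.03 ± 0.23) was not called. Rplp1 turned to -0.08 with the Bc1 level and to -0.19 with gene detection (genes detected per library) as a covariate.

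**Figure D3:**
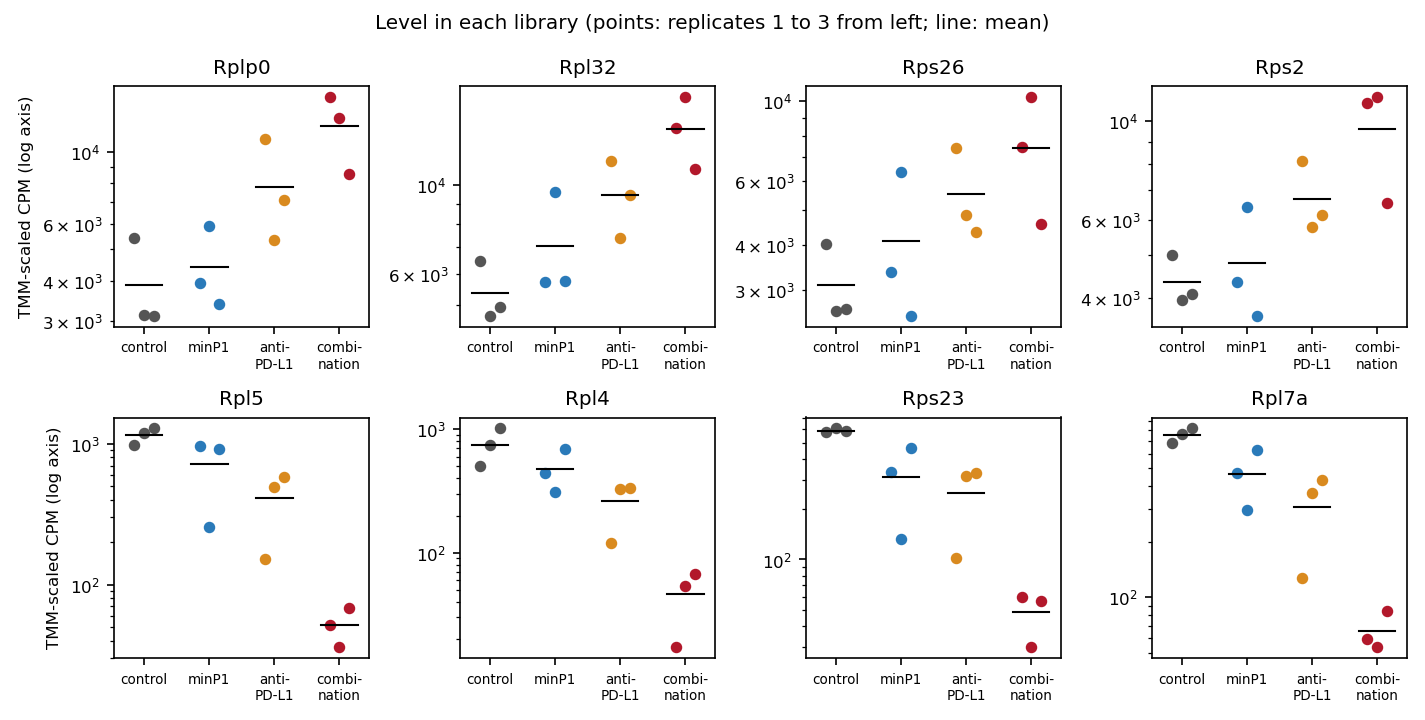
Level in each library (TMM-scaled CPM, log axes that differ between panels) of 4 members that rose and 4 that fell in the combination against control, with points for replicates 1 to 3 from left and a line at the group mean. Rpl5 lies at 982 to 1283 CPM in control and 35.8 to 67.7 in the combination, and Rplp0 at 3110 to 5409 and 8548 to 14811.

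Of the other members that rose, Rpl32 had 6448, 4695 and 4936 CPM in control and 13932, 16704 and 10991 in the combination, a log2 fold change of 1.37 ± 0.26. Rps26 had 4013, 2625 and 2651 CPM in control and 7478, 10276 and 4559 in the combination (1.26 ± 0.32), and Rps2, near the messenger RNA entry site, had 4991, 3956 and 4098 and then 11004, 11339 and 6545 (1.15 ± 0.26). Combination replicate 3 was the lowest of its group in these 3 genes and in Rplp0, and still above every control library. The remaining calls were Rpl32l (1.18), Rps9 (1.07), Rps27a (1.004), Rpl24 (0.83) and Rpl35a (0.69), of which Rps9 and Rpl35a overlapped with control. The processed pseudogene Rpl32l matches the coding sequence of Rpl32 nearly in full, so reads may have been split between the 2 symbols and the level of Rpl32l is uncertain.

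With a covariate, a smaller part of the members that rose than of those that fell kept the call. Gene detection did not overlap between control and combination, nor did the summed share of Bc1 and Lrrc17. Such covariates and the group difference therefore cannot be fully told apart. The largest rise, 1.63, was also smaller than the largest fall, -4.46, so this is not shown to be a trait of the rising members. With the Bc1 level as a covariate, 48 members were lower and 2 higher, Rplp0 and Rpl32. With gene detection as a covariate, 37 members were lower and none higher, and Rps9 turned to -0.01. Without the 2 libraries that stood apart, the same 61 members were called. Neither library is in this contrast, so leaving them out acts only through the shared spread, filter and scaling. It is therefore no check on these calls. Leaving out 1 library at a time, of any group and so also those outside this contrast, left 45 to 49 lower and 8 to 11 higher.

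Members were also grouped by known role. Of the 7 proteins around the nascent-chain exit tunnel, Rpl23a, Rpl35, Rpl26 (-2.36), Rpl31 (-0.75) and Rpl17 (-0.58) fell, while Rpl19 (0.09) and Rpl39 (0.16) were not called. Rps27a, made as a fusion with ubiquitin, rose, with 3028, 3503 and 3032 CPM in control and 6402, 7621 and 5151 in the combination. Rps6, the substrate of S6 kinase, fell by 0.74 ± 0.22 on the log2 scale, with 1563, 1291 and 1187 CPM in control and 717, 985 and 705 in the combination. Rps3, at the messenger RNA entry site and also a DNA repair protein, fell by 2.35 and Rps27, a zinc finger protein of the small subunit, by 1.98 on that scale. Of the 4 paralogs, Rpl22l1 and Rps27l (-1.64) fell, and Rpl7l1 (0.15) and Rpl39l (0.51) were not called. Rpl22, the usual counterpart of Rpl22l1, fell by 1.18, and Rpl13a, which in humans joins an interferon-induced translation-silencing complex, by 1.38. Among genes mutated in Diamond-Blackfan anaemia, an inherited failure of red cell production, Rpl5, Rpl11, Rps10, Rps19 and Rps24 fell, Rpl35a and Rps26 rose, and Rps7 (-0.13) was not called.

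The minP1 peptide alone called no member, and 0.0% of all genes tested, with edgeR. DESeq2 also called none of the members. With edgeR, 10 members had an unadjusted p under 0.05, as did 383 of the 5443 genes tested. The median log2 fold change was -0.15, and 26 members were above 0 and 55 below, against 2701 and 2742 of all genes tested. Libraries did not overlap with control in 23 members (28.4% of the 81), 22 of them lower. Over all genes tested the share without overlap was 12.4%. The smallest p-values were of Rps19 (-0.84 ± 0.28, adjusted p = 0.43), Rpl22l1 (-0.88 ± 0.31, adjusted p = 0.49) and Rps23 (-0.93 ± 0.34, adjusted p = 0.52). In Rps23, minP1 replicate 2 had 132 CPM and the other replicates 331 and 464.

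Anti-PD-L1 alone lowered 6 members, Rpl4 (-1.49), Rps19 (-1.34), Rpl23a (-1.32), Rpl22l1 (-1.31), Rpl7a (-1.26) and Rpl35 (-1.20), and raised none. In all genes tested, 1.12% were called, 0.57% lower and 0.551% higher. The members' median log2 fold change was -0.24. Rpl4 had 121, 330 and 338 CPM against 501, 742 and 1017 in control, and Rps19, a small-subunit protein needed for its maturation, had 206, 133 and 117 against 283, 472 and 376. Neither gene had an overlap between the groups. Libraries did not overlap in 47 members, 32 lower and 15 higher, against 23.5% of all genes. Among members that rose in the combination, Rplp0 (1.003 ± 0.30, adjusted p = 0.09), Rpl32l (0.84 ± 0.25, adjusted p = 0.094), Rpl32 (0.82 ± 0.26, adjusted p = 0.10) and Rps27a (0.74 ± 0.23, adjusted p = 0.10) came nearest to a call. Both contrasts use the same control libraries.

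These 6 calls rested on few libraries. Leaving out control replicate 2 or anti-PD-L1 replicate 2 left 0, anti-PD-L1 replicate 1 left 1, control replicate 3 or anti-PD-L1 replicate 3 left 2, and combination replicate 1 left 3. Leaving out control replicate 1 gave 10 and minP1 replicate 2 gave 14. Either covariate gave 0, and DESeq2 gave 13. The shares of all genes called in these settings are not given here.

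**Figure D4:**
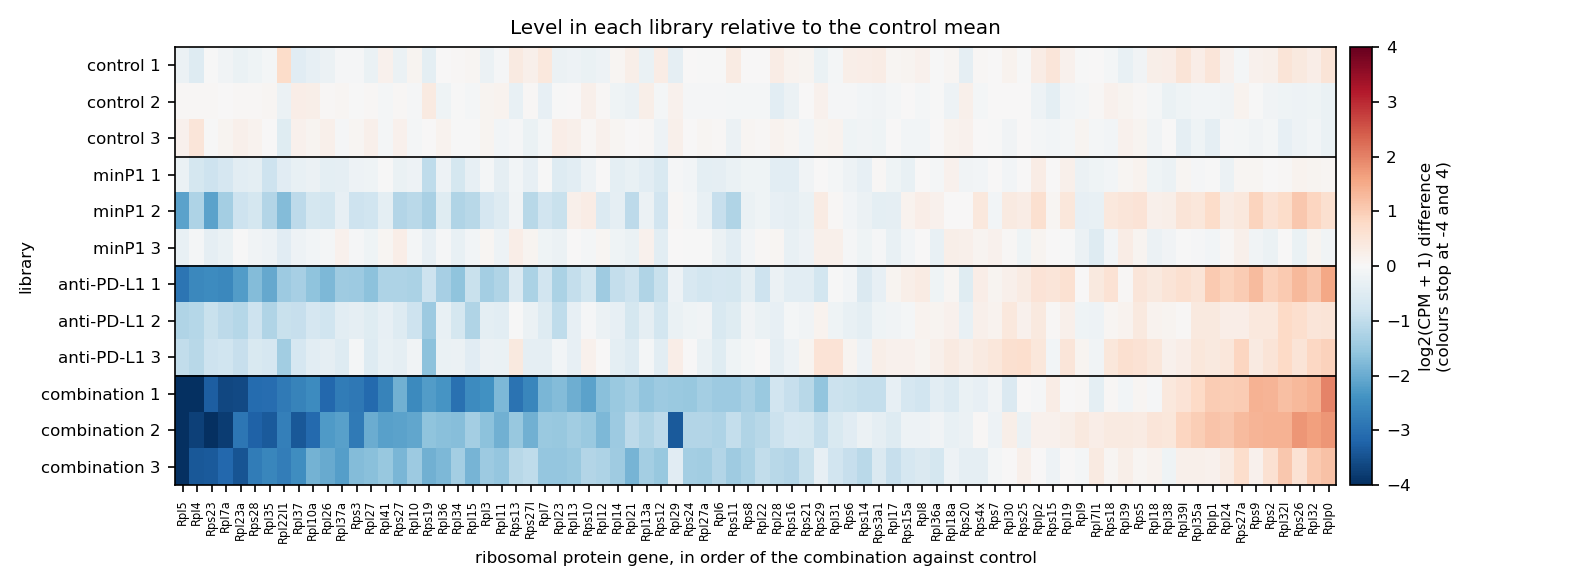
Level of ribosomal protein genes in each of the 12 libraries relative to the control mean, as a difference in log2(CPM + 1), with genes in the order of the combination against control. The blue and red ends are deepest in the 3 combination libraries, fainter in anti-PD-L1 replicate 1 and minP1 replicate 2, and faintest in the control libraries.

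Libraries within a group differed in the same genes. The ratio of Rplp0 to Rpl5 counts, the members with the largest rise and the largest fall, was 5.51, 2.63 and 2.42 in control, 4.09, 23.0 and 3.68 in minP1, 10.8 and 12.2 in anti-PD-L1 replicates 2 and 3, and 72.6 in anti-PD-L1 replicate 1. In the combination it was 289, 355 and 126. The 10 members that rose held 35.9% of ribosomal protein counts in minP1 replicate 2 against 26.5% and 23.9% in the other minP1 libraries, and 45.3% in anti-PD-L1 replicate 1 against 32.3% and 31.7%. Anti-PD-L1 replicate 1 thus lay within the combination's range of 44.7% to 58.5% in that share. The SD over members of the log2 difference from the control mean was 0.70 in minP1 replicate 2 and 1.02 in anti-PD-L1 replicate 1, against 0.18 to 0.25 and 0.50 to 0.53 in their fellow libraries and 1.12 to 1.55 in the combination. The part of Bc1 in this pattern was not tested beyond the fits with its level as a covariate.

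The combination was then compared with each agent alone. Against anti-PD-L1, 36 members fell (26 large, 10 small) and none rose, where 6.94% of all genes were called, 3.95% lower and 2.99% higher. Rpl5 (-3.00 ± 0.51), Rpl4 (-2.45 ± 0.46) and Rps23 (-2.41 ± 0.48) fell most, and Rplp0 (0.63 ± 0.29, adjusted p = 0.20) was not called. The count dropped to 17 without combination replicate 1, 18 without anti-PD-L1 replicate 3, 21 without anti-PD-L1 replicate 2 and 22 without combination replicate 2. Against minP1, 45 members fell (31 large, 14 small) and 6 rose, where 20.0% of all genes were called, 10.8% lower and 9.19% higher. Rpl5 (-3.77 ± 0.50) again fell most, and Rplp0 (1.45 ± 0.30), Rps2 (1.001 ± 0.26), Rpl32 (0.98 ± 0.26), Rpl32l (0.92 ± 0.25), Rpl24 (0.77 ± 0.24) and Rps27a (0.77 ± 0.24) rose. The 6 rises became 2 without minP1 replicate 1 and 1 without minP1 replicate 3. With gene detection as a covariate, 27 members fell and none rose.

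The interaction asks whether the combination differed from the sum of the agents' separate log2 changes. No member passed with edgeR, nor did any of the genes tested (0.0%). Of the 81 members, 34 had an unadjusted p under 0.05 and 68 were below 0. Over all 5443 genes tested, 600 had an unadjusted p under 0.05 and 3019 were below 0. The median was -0.60 against -0.09 over all genes. Rps28 (-1.65 ± 0.38, adjusted p = 0.15), Rpl37a (-1.49 ± 0.37, adjusted p = 0.18) and Rpl5 (-2.31 ± 0.64, adjusted p = 0.22) had among the smallest p-values. Rps28 had 1151, 1346 and 1424 CPM in control, 993, 798 and 1186 in minP1, 393, 730 and 847 in anti-PD-L1, and 154, 137 and 186 in the combination, with the combination below all other libraries and minP1 overlapping both control and anti-PD-L1. DESeq2 called 5 members, all lower. Without the 2 libraries that stood apart, which leaves 2 mice in each of those groups, edgeR called 17, all lower. These libraries were set apart by the same members, in which they lay toward the combination. More calls, and lower ones, thus follow in part from that choice. A departure from the sum therefore depended on those libraries and on the tool. The shares of all genes called in these 2 settings are not given here, so the counts are not shown to be particular to the members.

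Change and level went together among the members. Level was read from the minP1 libraries, which are not in the combination against control. The 27 members at the lowest level, 125 to 713 CPM, had a median log2 fold change of -1.83, with 22 lower and 1 higher. The 27 in the middle, 716 to 2092 CPM, had a median of -1.30, with 19 lower and none higher. The 27 at the highest level, 2156 to 14253 CPM, had a median of 0.03, with 10 lower and 9 higher. Other genes in the same ranges of level had medians of -0.10 (271 lower and 218 higher of 1151), 0.25 (21 lower and 34 higher of 96) and -0.31 (13 lower and 7 higher of 28). At the highest level the members' counts were thus near those of other genes. Spearman's rho between level and log2 fold change was 0.56 over the 81 members and -0.06 over the 5443 genes, a description across genes that share libraries. Rpl41 (4343 to 6033 CPM in minP1, -2.03) and Rps24 (6540 to 7110 CPM, -1.33) fell despite a high level, and Rpl7l1 (109 to 139 CPM, 0.15) was not called despite a low one.

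**Figure D5:**
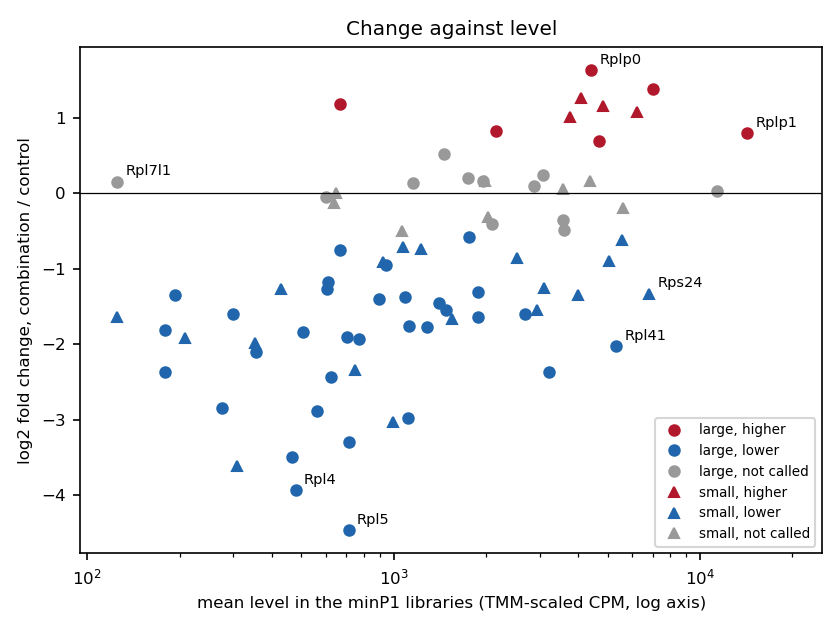
Log2 fold change of ribosomal protein genes in the combination against control, plotted against its mean level in the minP1 libraries (TMM-scaled CPM, log axis). Of the 10 members called higher, 9 are among the 27 at the highest level, and Rpl5 and Rpl4 lie at 713 and 479 CPM.

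Other properties of the members varied little with the change. Spearman's rho with the log2 fold change was 0.00 for coding GC content, -0.03 for coding length (both n = 80 members) and -0.10 for the number of near-identical genes. It was -0.20 for the longest pyrimidine run as counted within the window, whose edge cut some runs (n = 61). The median coding length was 468 bases in the members called higher, 453 in those called lower and 446 in those not called. Near-identical copies are frequent in this family: 72 of 80 members searched had at least 1 other annotated gene matching at 95% identity over 80% of the coding sequence, with a median of 5 and a maximum of 57 for Rpl21. How reads with several matches were assigned is not given in the sources used here, so single members are uncertain to that extent. With the counts of such copies added, 50 members were lower and 10 higher in the combination against control. Some matched genes have unrelated symbols, such as Wdr89 for Rplp2 and Med21 for Rps26, and their whole counts were added.

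Ribosomal proteins with other symbols, which the rule leaves out, were also read in the combination against control. Rpsa (0.50 ± 0.28, adjusted p = 0.17), Fau (0.05 ± 0.22, adjusted p = 0.88) and Rack1 (0.39 ± 0.24, adjusted p = 0.22) were not called.

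Other genes of translation and ribosome assembly were taken as lists chosen with results of these data known. Of 30 tested companions of translation, many with the same 5′ motif, 12 fell and 4 rose in the combination against control, where 18.3% of all genes were called lower. The elongation factor genes Eef1g (-2.43), Eef1a1 (-1.40) and Eef1b2 (-1.04) fell, and Eef1d (1.28) and Eef2 (1.17) rose. Of 31 tested ribosome assembly genes, 12 fell, among them Nop56 (-1.96) and Fbl (-1.36) of the box C/D particles that methylate ribosomal RNA and nucleolin, Ncl (-1.28), and Utp4 (1.02) rose. Of 51 tested mitochondrial ribosomal proteins, which serve a separate ribosome, 12 fell and 2 rose, with a median of -0.42, a share lower that is near that of all genes. Of 9 genes of the mTOR and S6 kinase pathway, Eif4g1 (-2.10), Rps6kb1 (-1.58) and Eif4a1 (-1.22) fell and Larp1 (1.16 ± 0.26, 211 ± 41.0 CPM in control and 476 ± 94.4 in the combination, SD) rose. Of 4 tested genes of p53 and of stalled ribosomes, 2 rose and 1 fell: Ascc3 (1.76), a helicase acting on collided ribosomes, rose and Gcn1l1 (-1.45), a sensor of stalling, fell. Mdm2, whose product RPL5 and RPL11 can bind, rose (1.86 ± 0.33, 108 ± 31.0 CPM in control and 403 ± 202 in the combination).

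Markers of the cells in the suspension moved with these changes. The summed level of 9 macrophage markers was 1002 to 1174 CPM in control and 2047 to 4371 in the combination, and 4 of the 6 tested rose. That of 8 neutrophil markers was 329 to 404 CPM and 662 to 734, with 5 of 6 tested higher and Cxcr2 lower. That of 7 T cell markers (an 8th, Trac, is not among the symbols used here) was 32.9 to 56.0 and 152 to 248, with Thy1, the only one tested, higher. Thy1 held most of these counts, 191 over the 12 libraries against 39 for Cd2, the next, so the sum is largely that of 1 gene. The summed level of 6 proliferation markers was 1245 to 1441 in control and 824 to 931 in the combination, with Mki67 and Top2a lower of 4 tested. Summed fibroblast markers, 904 to 1335 and 733 to 1187 CPM, overlapped, with Col1a2 and Pdgfra lower of 4 tested, and so did summed erythroid markers, 1414 to 2801 and 863 to 2274 CPM, with Hbb-b1 and Hbb-b2 lower of 4 tested. Of 4 leukocyte markers tested, Laptm5 was higher, with 155 counts in control and 137 in the combination, whose libraries held fewer counts in total. The others were not called: Ptprc had 71 and 13 counts, Cd52 70 and 16, and Coro1a 172 and 110. The part of cell make-up, depth and the ribosomal RNA share in the ribosomal protein changes was not tested.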

How the data were processed

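The authors deposited 1 table per library of whole-number counts per gene symbol, not normalized, per the file headers and values. Bowtie2 2.2.5, R 3.6.1, DESeq2 and mm10 are named in the submitters' processing notes without roles. Counting tool, strand and treatment of multiple matches: not given in the sources used here. Groups came from the sample titles. Counts were filtered with filterByExpr defaults (5443 genes kept), scaled with TMM and tested with edgeR 4.0.16 (R 4.3.3), quasi-likelihood, on all 12 libraries with 1 mean per group, with p-values of each of 6 comparisons adjusted by Benjamini-Hochberg across all 5443, threshold 0.05. The prior count was 0.125 and the biological coefficient of variation 22.5%. Totals were 133917 to 473273 counts, without molecular identifiers, so reads are not independent molecules.

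The members and lists were chosen with earlier results of these data known. Members named are, per comparison, up to 10 called in each direction by size of change (the 5 smallest p-values where fewer than 5 were called), a fixed set of 15 chosen for their roles, the 5 highest and 5 lowest in level, and up to 4 per companion list by smallest p. Rpl41, Rps24, Rpl7l1 and other genes outside it were named after their values were seen. Near-identical genes were found with blastn 2.17.0 by searching each member's coding sequence among all GENCODE M21 transcripts (GRCm38) of other genes. Promoter sequences are RefSeq's. In data simulated for the combination against control (5323 genes), genes drawn from all those tested, not from the members, were changed. Of these, 49 of 50 raised 4-fold and 30 of 46 lowered to 0.25-fold were recovered. Of those raised 2-fold 16 of 49, and of those lowered to 0.5-fold 9 of 46, were recovered, with 2 false calls. Alternatives were other scalings, no filter, Bc1 level or detected genes as a covariate, a replicate block, DESeq2 1.42.0, each library left out and, chosen after seeing the data, 2 libraries left out together and near-identical copies added. Single values of some genes are not reported here.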

Additional observations from a re-analysis of the deposited data

How the results depend on the processing

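In the combination against control, 61 ribosomal protein genes were called (10 higher, 51 lower), and 53 to 59 with 1 library left out. Detected genes as a covariate gave 37. Against minP1, 51 were called, 34 to 56 with 1 library left out, and 27 with that covariate. Against anti-PD-L1, 36 were called, and 17 to 38 with 1 library left out. For anti-PD-L1 against control, 6 were called, 0 to 14 with 1 library left out, 11 with no filter, 13 with DESeq2, 2 without the pair of libraries that stood apart (minP1 replicate 2, anti-PD-L1 replicate 1), and 0 with Bc1 or detected genes as a covariate. For the interaction, 0 were called, 0 to 3 with 1 library left out, 9 with no filter, 9 with the Bc1 covariate, 5 with DESeq2 and 17 without those 2 libraries. The minP1 count was 0 under all 22 alternatives. The share of all genes called under each alternative is not given here, so a changed count is not shown to be particular to the members. The causes of these changes were not tested.

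Among single genes in the combination against control, Rplp1 turned to -0.076 and -0.19 and Rplp2 to -0.25 and -0.39 with Bc1 and detected genes as covariates, and Rps9 to -0.0062 with the second. Rplp2, never called, was -0.024 with library totals, -0.034 with no filter, and from -0.050 to 0.23 with 1 library left out. Of the other values for named genes, medians and shares, 795 kept direction and side of the threshold, and 84 lost the call.

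Replicate numbers are shared between groups but name separate mice. Deviations of same-numbered libraries correlated at -0.12 to 0.20 over 18 pairs, over 0.1 in 9. Those of differently numbered libraries correlated at -0.28 to 0.28. The numbers were not taken as pairs because the labels state no pairing. A batch shared by number was not tested beyond a replicate block. With that block, 13 members were called in anti-PD-L1 against control and 3 in the interaction. It gave 61, 38, 54 and 0 in the combination against control, against anti-PD-L1, against minP1 and for minP1 against control.

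With 133917 to 196109 counts in the combination, a member that fell most rests on some 20 to 30 counts there. In simulated data, 2-fold changes were mostly not recovered (16 of 49 raised and 9 of 46 lowered). Those genes were drawn from all genes tested, so this is not the recovery of the members. Some members that changed less than 2-fold were called, such as Rpl17 and Rpl35a.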
